A study of Mus musculus with 6 samples.

Results

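Of the 22 tRNA genes of the mouse mitochondrial genome, 5 lie on the plus strand before mt-Nd2, beside or close to the ribosomal RNA genes. They are mt-Tf, mt-Tv, mt-Tl1, mt-Ti and mt-Tm, taken by strand, biotype and position alone out of 47729 genes counted. No measured value entered this rule, although earlier results of these data were known when it was set. Their RNA was counted in extracellular vesicles (EVs) from WEHI-231, an established mouse B lymphoma line. Cells at 500000 per mL received either 10 µg/mL of the anti-CD24 antibody M1/69 or a matched isotype control for 1 h, each bound beforehand to 5 µg/mL of a secondary antibody, and 3 libraries were made per condition. EVs were pulled down with the Vn96 peptide, so the RNA came from the whole EV population of a single cell line, with the secondary antibody present in both conditions. All isotype libraries carried barcode 1 and all anti-CD24 libraries barcode 2, so barcode and condition cannot be told apart, and libraries with the same replicate number carry the same sequencing run identifier in the deposited data.

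Mitochondrial DNA is transcribed from both strands into long precursors, in which tRNAs sit between the rRNAs and mRNAs. Cutting at the ends of the tRNAs releases the flanking RNAs, and a CCA end is then added to each tRNA by an enzyme, since the genes do not encode it. Transcription that starts upstream of mt-Tf passes through the 12S rRNA gene mt-Rnr1, mt-Tv, the 16S rRNA gene mt-Rnr2 and mt-Tl1, and can continue into mt-Nd1, mt-Ti, mt-Tm and mt-Nd2. Within the gene of the leucine tRNA lies the binding site of the transcription termination factor MTERF1.

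The sequences of the 5 genes are shown because their counts in the EVs differed widely although they are similar in size. They are the GENCODE M21 transcripts (GRCm38, plus strand), written 5′ to 3′ as DNA, with the anticodon in capitals. Each anticodon was placed by searching for its letters inside a loop closed by a stem of 5 bases, of which 4 or 5 pair.
mt-Tf (phenylalanine, chrM:1-68): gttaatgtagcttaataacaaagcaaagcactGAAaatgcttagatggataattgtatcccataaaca
mt-Tv (valine, chrM:1025-1093): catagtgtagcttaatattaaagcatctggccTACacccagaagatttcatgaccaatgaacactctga
mt-Tl1 (leucine UUR, chrM:2676-2750): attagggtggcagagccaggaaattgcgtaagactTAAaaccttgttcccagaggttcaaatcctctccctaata
mt-Ti (isoleucine, chrM:3706-3774): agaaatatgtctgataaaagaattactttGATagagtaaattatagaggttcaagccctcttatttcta
mt-Tm (methionine, chrM:3845-3913): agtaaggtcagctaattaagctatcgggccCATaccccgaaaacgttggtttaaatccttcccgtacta

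The genes are 68 to 75 bases long, and each is a single exon that is not translated. The GC content was 27.5% for mt-Ti, 30.9% for mt-Tf, 39.1% for mt-Tv and 44.9% for mt-Tm, with mt-Tl1 at 44% just below it. Aligned end to end, any 2 of them were identical at 47.5% to 59.2% of the columns. No stretch of 28 bases of any member occurred in a transcript of another gene among the 141767 transcripts searched. With 90% identity over at least 28 bases, the only match was of mt-Tl1 to the opposite strand of a Cep295 transcript, and Cep295 had 0 counts in every library. Nuclear copies outside annotated transcripts were not searched.

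Between 166129 and 794185 counts per library fell on genes, of which 15626 to 112042 belonged neither to rRNA nor to ribozyme genes. A count of 3, used as the floor, corresponds to 3.78 to 18.1 CPM, counts per 1000000 counts on genes, depending on the library. Intervals and floors given here cover counting error only. Mitochondrial genes held 31.6%, 38.3% and 31.6% of the non-rRNA counts in isotype replicates 1 to 3 and 20.98%, 42.6% and 26.98% in anti-CD24 replicates 1 to 3. The 9 B cell markers examined had 0 to 17 counts together in an isotype library and 6 to 12 in an anti-CD24 library, with Ptprc at 0 in all 6, so the labelled cell type could not be checked at this depth. T cell and platelet markers were at 0 throughout. Macrophage markers (Lyz2 and Csf1r) had at most 4 counts in a library. The erythroid genes Hba-a1 and Hbb-bs had 13 and 38 counts in anti-CD24 replicate 1 and 0 in every other library.

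mt-Tm is the only methionine tRNA gene of the mitochondrial genome and serves both to start and to extend its proteins. It had the most counts per base of the 22 mt-tRNAs. It held the first place in each of the 6 libraries. Its counts were 2015, 1261 and 1079 in isotype replicates 1 to 3 and 1399, 11515 and 4586 in anti-CD24 replicates 1 to 3. As CPM these were 6250, 7590 and 1413 after isotype and 2292, 15640 and 5774 after anti-CD24. The highest value was in anti-CD24 replicate 2 and the lowest in isotype replicate 3, and the conditions overlapped. mt-Tm alone made up 56.2% to 74.8% of all mt-tRNA counts in a library.

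mt-Tv, the valine tRNA that lies between the 2 mitochondrial rRNA genes, was second of the 22 in each library. In human cells this tRNA is also built into the large subunit of the mitochondrial ribosome. mt-Tv had 358, 143 and 236 counts after isotype, or 1110, 861 and 309 CPM. After anti-CD24 it had 302, 3148 and 1218 counts, or 495, 4275 and 1534 CPM. Isotype replicates 1 and 2 were above anti-CD24 replicate 1, and both were below the other anti-CD24 libraries.

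The remaining 3 members had few counts, and those of mt-Ti leave out its full-length reads, as described below. mt-Tf, the phenylalanine tRNA at the start of the precursor, had 14, 9 and 4 counts after isotype (43.4, 54.2 and 5.24 CPM) and 18, 165 and 94 after anti-CD24 (29.5, 224 and 118 CPM). For mt-Ti, the isoleucine tRNA, the counts were 31, 9 and 3 after isotype (96.2, 54.2 and 3.93 CPM) and 26, 206 and 35 after anti-CD24 (42.6, 280 and 44.1 CPM). mt-Tl1, the tRNA for the leucine codons UUA and UUG, had 14, 13 and 2 counts after isotype (43.4, 78.3 and 2.62 CPM) and 4, 54 and 33 after anti-CD24 (6.55, 73.3 and 41.6 CPM). All 3 were lowest in isotype replicate 3, where mt-Ti and mt-Tl1 were at or under the floor of 3 counts. The 2 conditions overlapped in CPM for 5 of 5 members, where 5.73% of the 1501 genes tested below were higher and 6.53% lower after anti-CD24 without overlap. The plot of CPM by gene shows the separation of mt-Tm and mt-Tv from these genes.

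**Figure D1:**
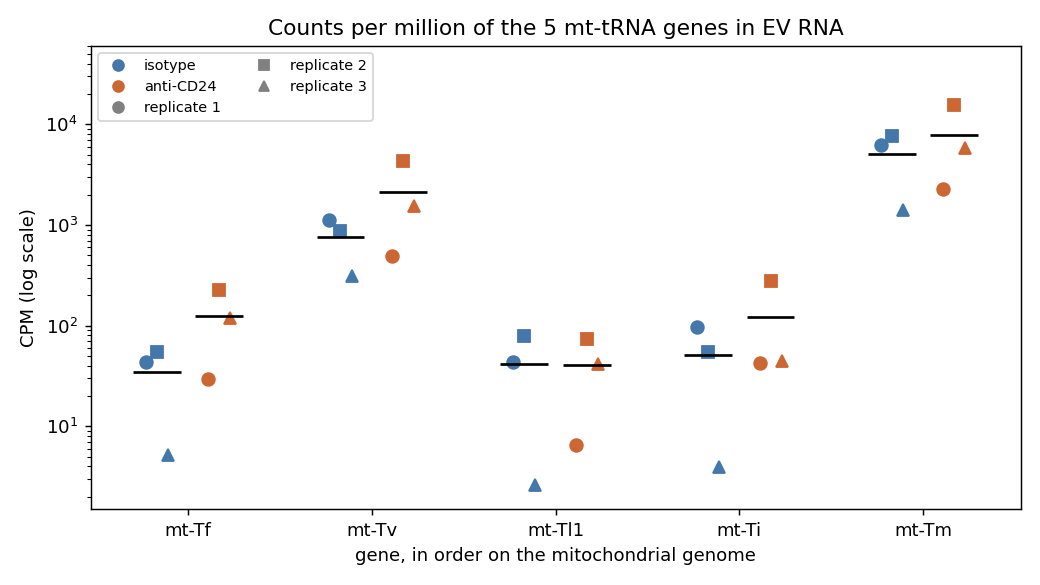
CPM of the 5 genes on a log axis, with 1 point per library (blue isotype, orange anti-CD24, marker shape for the replicate number) and a black line at the mean of 3. mt-Tm ran from 1413 to 15640 CPM, mt-Tv from 309 to 4275, and the other genes stayed at or under 280, with overlapping conditions for every gene.

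To compare levels between genes, CPM were divided by gene length. Levels here are counts per base, and how far counts of different tRNAs follow their numbers of molecules was not tested. mt-Tm had 94100 ± 73570 CPM per kilobase (SD, n = 6), mt-Tv 20730 ± 21160, mt-Ti 1258 ± 1435, mt-Tf 1164 ± 1183 and mt-Tl1 546 ± 426. The spread between libraries was close to or above the means for mt-Tv, mt-Ti and mt-Tf and below them for mt-Tm and mt-Tl1, so the genes were compared within each library. There, mt-Tm was above mt-Tv by 2.30 ± 0.47 on the log2 scale of the ratio (SD, n = 6 libraries), and mt-Tv above mt-Tf by 4.41 ± 0.78. Of the 10 pairs of members, 7 had the same order in all 6 libraries, each with p = 0.031, the smallest that an exact sign-flip test over 6 libraries can give (0.045 after Benjamini-Hochberg adjustment over the 10 pairs). These were the pairs with mt-Tm or mt-Tv. Pairs with mt-Ti are limited by the counting, which left out its full-length reads, so their p-values do not compare the tRNAs on equal terms.

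The 3 members with few counts could not be ordered. mt-Ti and mt-Tf differed by a mean of 0.01 ± 0.88 on the log2 scale (exact sign-flip test, p = 1.0), with mt-Ti higher in 3 of 6 libraries. mt-Tf was above mt-Tl1 in 5 of 6 libraries, by 1.10 ± 1.03, and mt-Ti above mt-Tl1 in 5 of 6, by 1.11 ± 1.19 (exact sign-flip tests, p = 0.094, adjusted 0.10 for both). The counts behind these ratios were as low as 2 in isotype replicate 3, and those of mt-Ti leave out its full-length reads.

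The position of the genes gave no common level. mt-Tf and mt-Tv flank the same rRNA gene, yet mt-Tf stood at 0.017 to 0.078 of mt-Tv per base. mt-Tf was also below mt-Rnr1, its downstream neighbour, at 0.010 to 0.34 of its level per base. mt-Tv ranged from 0.61 to 6.43 times mt-Rnr1 and from 0.40 to 4.24 times mt-Rnr2, with isotype replicate 3 lowest and anti-CD24 replicate 2 highest in both. mt-Tl1, on the other side of mt-Rnr2, was at 0.003 to 0.12 of mt-Rnr2 per base and at 0.67 to 4.96 times mt-Nd1, the complex I gene that follows it.

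mt-Ti overlaps the end of mt-Nd1 by 2 bases and was at 1.10 to 15.7 times its level per base. mt-Tm ends directly before mt-Nd2, another complex I gene, and exceeded it by 206 to 773 times per base. The counts of mt-Tm and mt-Nd2 were 4586 and 335 in anti-CD24 replicate 3 (206 times) and 11515 and 224 in anti-CD24 replicate 2 (773 times). Because the RNA was not fragmented for the libraries, ratios per base to longer genes rest on a scale that is only common, not measured. mt-Tq, the glutamine tRNA on the opposite strand between mt-Ti and mt-Tm, ranked 3 or 4 among the 22 mt-tRNAs in each library. It was below mt-Tm, which was at 8.09 to 27.3 times its level per base, and above mt-Ti, which was at 0.023 to 0.21 of it. The map of levels in gene order shows these steps between adjacent genes. In the counting used, a read that reached into 2 genes on the same strand was set aside as ambiguous. Reads of uncut precursors across these borders are therefore not in the values. Neither are reads of mt-Ti that reach the 2 bases it shares with mt-Nd1, so the counts of mt-Ti leave out its full-length reads. In the whole genome, 2743 to 21834 reads per library were ambiguous.

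**Figure D2:**
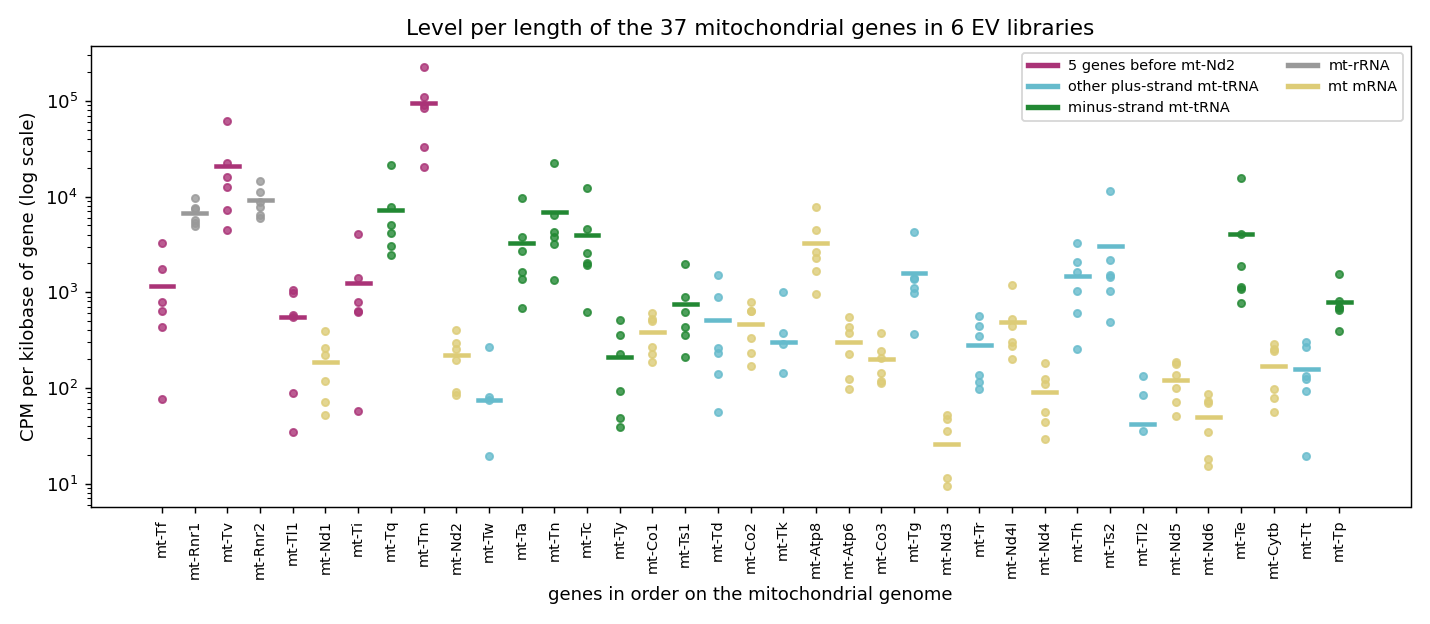
CPM per kilobase of gene, on a log axis, for the 37 mitochondrial genes in their order, with 1 point per library (libraries with 0 counts are not drawn) and a bar at the mean of 6. mt-Tm and mt-Tv are the highest tRNAs, while mt-Tf, mt-Tl1 and mt-Ti lie at ranks 12, 15 and 11 of the 22 by their means. The counts of mt-Ti leave out its full-length reads.

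mt-Tm (44.9% GC) and mt-Tv (39.1%) had a higher GC content than mt-Tf (30.9%) and mt-Ti (27.5%) and were above them per base. mt-Tl1, at 44% GC and with 2 to 54 counts per library, had the lowest mean of the 5. Whether GC content plays a part in the counts was not tested. mt-Tl1 and mt-Tm have nearly the same GC content. mt-Tm was nonetheless above mt-Tl1 per base in 6 of 6 libraries, by 7.81 ± 0.93 on the log2 scale (SD). Over the 22 mt-tRNA genes, Spearman's rho between mean CPM per kilobase and GC content was 0.24, given as a description, since the genes share the same 6 libraries.

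The 5 genes together took 8.75% (95% Wilson interval 8.42% to 9.09%), 9.18% (8.74% to 9.65%) and 1.92% (1.82% to 2.02%) of the non-rRNA counts (those on neither rRNA nor ribozyme genes) in isotype replicates 1 to 3. In anti-CD24 replicates 1 to 3 they took 2.71% (2.58% to 2.83%), 13.5% (13.3% to 13.7%) and 7.33% (7.15% to 7.51%). The means were 6.62% ± 4.07 after isotype and 7.83% ± 5.40 after anti-CD24 (SD, n = 3 each), a difference far within the spread between replicates. The highest and lowest library differed by 7.01 times. In bulk EV RNA, a smaller number of vesicles with an RNA and fewer copies of it in each vesicle cannot be told apart. Of all mitochondrially encoded counts the share was 6.07% to 31.6%, again lowest in isotype replicate 3, in which the mt-rRNAs reached 86.9% of mitochondrial counts.

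Of the mt-tRNA counts the same 5 genes held 76.2%, 85.1% and 75.8% after isotype and 71.6%, 73.6% and 84.6% after anti-CD24, and the other 17 genes held the rest, 14.9% to 28.4%. The highest library was 1.19 times the lowest for the 5 genes and 1.91 times for the other 17, and since the 5 genes make up most of this total, their own share has little room to vary. The other 9 plus-strand mt-tRNAs held 3.72% to 5.65% and the 8 minus-strand mt-tRNAs 11.2% to 22.7%. The 5 genes exceeded the other 17 together in 6 of 6 libraries, as mt-Tm alone did.

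**Figure D3:**
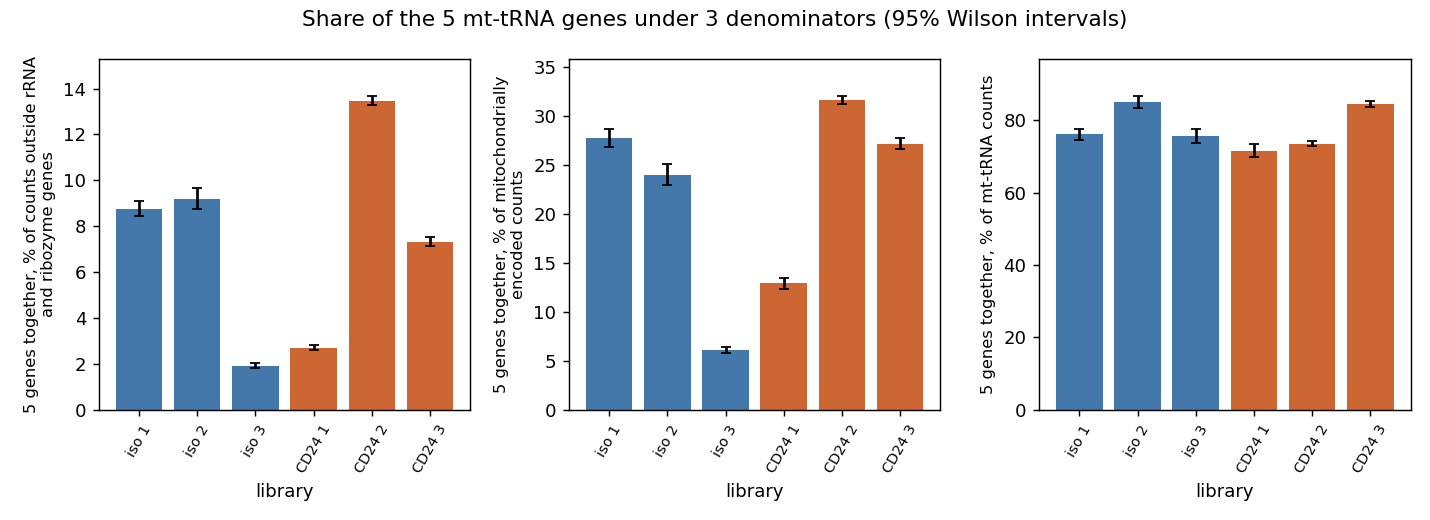
Share of the 5 genes together in each library (blue isotype, orange anti-CD24), as a percent of non-rRNA counts, of mitochondrially encoded counts and of mt-tRNA counts, with 95% Wilson intervals. The left and middle panels run from 1.92% to 13.5% and from 6.07% to 31.6%, while the right panel stays between 71.6% and 85.1%.

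Whether CD24 stimulation changed the amount of these tRNAs in the EVs was tested within all genes. With edgeR's quasi-likelihood test on the 1501 genes with at least 1.0 CPM in 3 or more libraries, all 5 members were tested and 0 of 5 had an adjusted p under 0.05, against 1 of 1501 genes (0.0666%). Before adjustment, mt-Tf and mt-Tv passed 0.05, both higher after anti-CD24, and so did 119 of the 1501 genes (7.93%), 63 of them higher (4.2%).

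The largest log2 fold change of the 5 was that of mt-Tf, 2.33 (SE 0.91, adjusted p = 0.49 in the edgeR fit). That of mt-Tv followed with 1.71 (SE 0.74, adjusted p = 0.54). The values of mt-Ti were 1.34 (SE 0.88, adjusted p = 0.55), of mt-Tm 0.94 (SE 0.74, adjusted p = 0.60) and of mt-Tl1 0.52 (SE 0.97, adjusted p = 0.85). All 5 were above the median of the 1501 genes, which was -0.29, and log2 fold changes above 0 were found for 44.7% of all genes. DESeq2, whose scaling put that median at -0.97, called 0 members and gave mt-Tl1 a value of -0.17, which was 0.80 above the median as against 0.81 in the edgeR fit. With mitochondrial counts as the library size mt-Tl1 was also negative, at -0.35, and the other 4 stayed above 0.

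Libraries with the same replicate number were compared within their sequencing run, although they did not deviate together across genes. Each ratio sets 1 library against 1 other, without replication, and no test was made of it. The 3 runs did not go the same way. In run 1 the members together were lower after anti-CD24, with a log2 CPM ratio of -1.40, and in runs 2 and 3 they were higher, with ratios of 1.25 and 2.12. Each of the 5 genes was lower after anti-CD24 in run 1. mt-Tf, mt-Tv, mt-Ti and mt-Tm were higher in runs 2 and 3, and mt-Tl1 was at 78.3 CPM after isotype and 73.3 CPM after anti-CD24 in run 2 and at 2 and 33 counts in run 3 for isotype and anti-CD24.

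The outcome depended on anti-CD24 replicate 1. With that library left out, mt-Tv (log2 fold change 2.56, adjusted p = 0.0015), mt-Tf (3.14, adjusted p = 0.0061) and mt-Tm (1.76, adjusted p = 0.0089) passed the threshold in edgeR's quasi-likelihood test, while mt-Ti (2.28, adjusted p = 0.095) and mt-Tl1 (1.36, adjusted p = 0.55) did not. In that fit 47 of 1119 genes (4.2%) were called, 46 higher (4.11%) and 1 lower (0.0894%) after anti-CD24. The left-out library is the one with the erythroid counts, and their part in the result was not tested. Without anti-CD24 replicate 2, 0 of 5 members were called and their log2 fold changes lay between -0.11 for mt-Tl1 and 1.69 for mt-Tf.

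**Figure D4:**
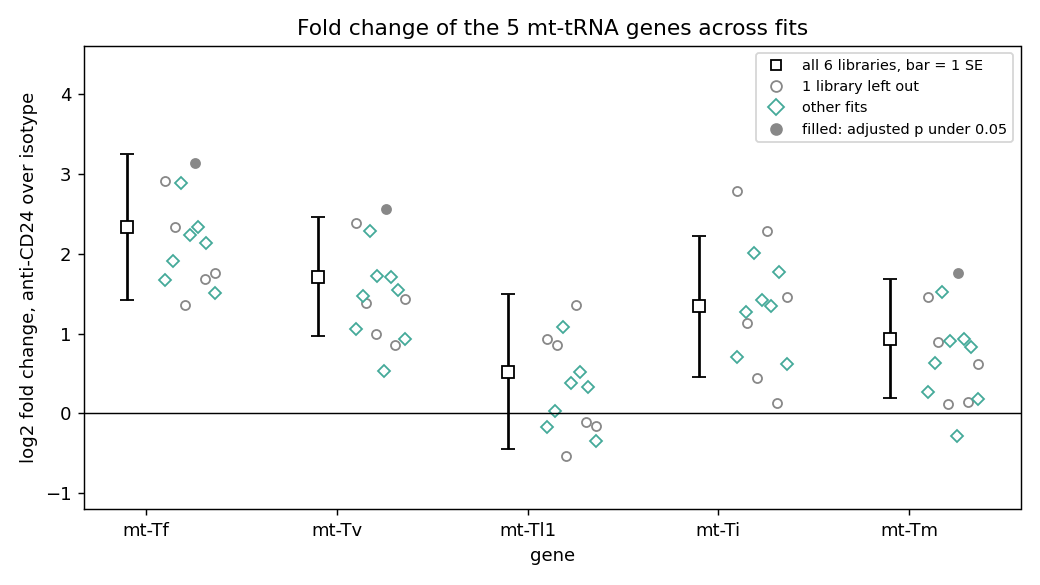
Log2 fold change of each gene, anti-CD24 over isotype, in the fit of all 6 libraries (black squares, bars of 1 SE), with 1 library left out (grey circles) and in other fits (green diamonds), filled where the adjusted p was under 0.05. The filled points, for mt-Tf, mt-Tv and mt-Tm, all come from the fit without anti-CD24 replicate 1, and mt-Tl1 falls on both sides of 0, as does mt-Tm in 1 other fit (-0.28, with at least 10 counts required in every library).

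The make-up of the 5-gene sum compares the members within each library, whatever its total. mt-Tm was 82.9%, 87.9% and 81.5% of the sum after isotype and 80.0%, 76.3% and 76.9% after anti-CD24. The conditions did not overlap, with means of 84.1% ± 3.4 and 77.7% ± 2.0 (SD, n = 3 each; exact permutation test, two-sided, p = 0.1, the smallest that 3 against 3 allow). The lowest isotype library (81.5%, 95% Wilson interval 79.3% to 83.5%) and the highest anti-CD24 library (80.0%, 78.0% to 81.8%) were within counting error of each other.

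mt-Tf was 0.58%, 0.63% and 0.30% of the sum after isotype and 1.03%, 1.09% and 1.58% after anti-CD24. It did not overlap either, with means of 0.50% ± 0.17 and 1.23% ± 0.30 (SD, n = 3 each; exact permutation test, two-sided, p = 0.1, the smallest possible). The highest isotype library was replicate 2 (0.63%, Wilson interval 0.33% to 1.19%, 9 counts). The lowest anti-CD24 library was replicate 1 (1.03%, Wilson interval 0.65% to 1.62%, 18 counts). Their intervals overlapped, so these libraries were within counting error of each other. When each of the 1501 genes was divided by the same sum, 2.93% were higher without overlap after anti-CD24 and 7.99% lower. mt-Tv took 14.2% ± 4.0 after isotype and 19.5% ± 2.0 after anti-CD24, with 17.8% in isotype replicate 3 above 17.3% in anti-CD24 replicate 1 (exact permutation test, p = 0.2). mt-Ti (p = 0.3) and mt-Tl1 (p = 0.6, exact permutation tests, n = 3 each) overlapped.

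**Figure D5:**
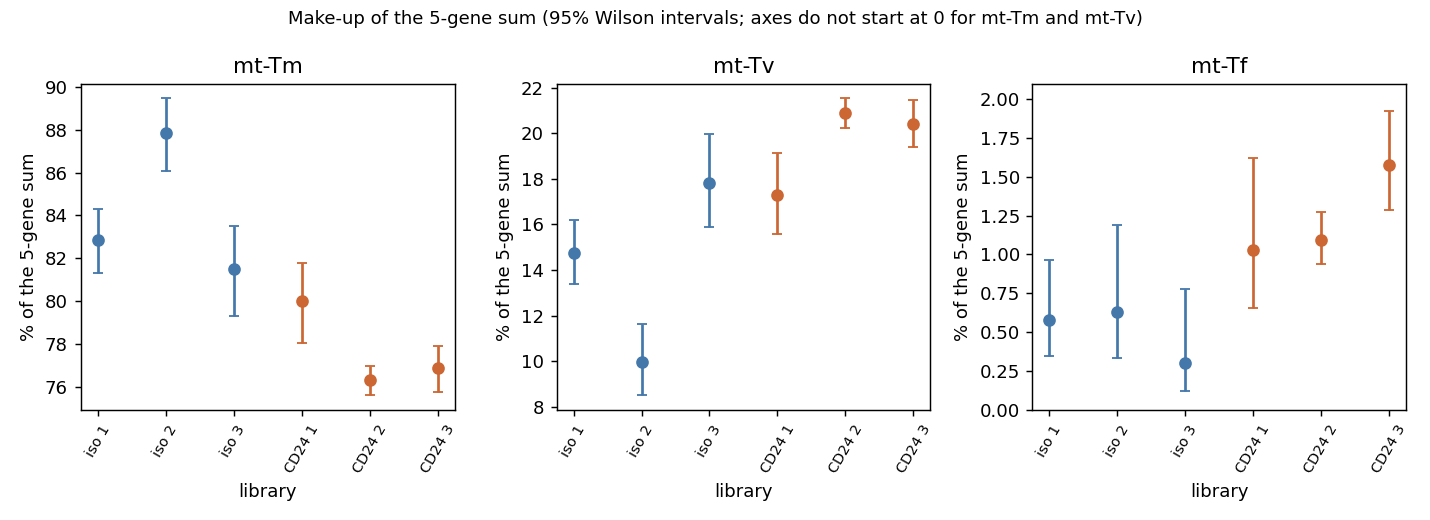
Percent of the 5-gene sum taken by mt-Tm, mt-Tv and mt-Tf in each library (blue isotype, orange anti-CD24) with 95% Wilson intervals, where the axes of mt-Tm and mt-Tv do not start at 0. mt-Tm lies at 81.5% to 87.9% after isotype and 76.3% to 80.0% after anti-CD24, and mt-Tf at 0.30% to 0.63% and 1.03% to 1.58%.

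The other mitochondrial tRNAs had log2 fold changes of a similar size. In the same edgeR fit the 9 other plus-strand mt-tRNAs had a median log2 fold change of 1.17 and the 8 minus-strand mt-tRNAs 1.17, against 1.34 for the 5 members, and 0 of these 17 genes had an adjusted p under 0.05. The 13 mt mRNAs had a median of 1.10, also with 0 calls. Of the genes beside the members, mt-Nd1 had 1.65 (SE 0.81, adjusted p = 0.55), mt-Nd2 1.23 (SE 0.78, adjusted p = 0.55) and mt-Tq 0.88 (SE 0.76, adjusted p = 0.64). The rRNAs were nearer 0, with 0.27 (SE 0.74, adjusted p = 0.88) for mt-Rnr1 and 0.22 (SE 0.76, adjusted p = 0.92) for mt-Rnr2. These lists share all libraries with the members, and no difference between lists was tested.

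Of nuclear genes that serve these tRNAs, 2 of 5 charging enzymes and 7 of 16 processing genes had a count in some library. So did 1 of 5 transcription genes and, over all genes, 9700 of 47729 (20.3%). Of the enzymes that charge the 5 tRNAs, Fars2, Vars2 and Mars2 had 0 counts in every library, and Iars2 had 8 counts in isotype replicate 3 alone. Lars2, the leucyl-tRNA synthetase, had 202 to 1178 counts per library, and its log2 fold change was 0.32 (SE 0.73, adjusted p = 0.85). The files give no position within the gene, so how much of this came from its mRNA was not tested. Among 16 genes for processing and modifying mt-tRNAs, 7 had a count in some library and 9 were at 0 throughout, including Elac2, which cuts the 3′ end, and Trnt1, which adds the CCA end, and none of the 16 reached the level for testing. Of the 5 transcription genes, Polrmt had 1 count and the others 0.

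Among the 132 other genes with at least 10 counts in every library, those whose log2(CPM + 1) followed the member sum most closely over the 6 libraries were mt-Th, the histidine tRNA (Pearson's r = 0.97), n-R5s115, a 5S rRNA gene (0.96), Rny1, the Y1 RNA (0.95), mt-Atp6, a subunit of ATP synthase (0.94), and Gm28437, annotated as an unprocessed pseudogene on chromosome 1 (0.94). They were picked as the highest of 132, so the coefficients are a description with no p. mt-Th had its lowest CPM in isotype replicate 3 (13 counts) and its highest in anti-CD24 replicate 2 (217 CPM, 160 counts), which were also the lowest and highest libraries of the member sum.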

How the data were processed

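IonTorrent reads were quality trimmed by the authors (FASTX toolkit), mapped by tmap and assigned to genes by HTSeq 0.5.4p5 in union mode, by strand and exon, with no minimum alignment quality. The labels name GRCm38.p4 as the build and the study's methods GRCm38.p5, and gene positions here come from GENCODE M21 for GRCm38. The deposited files hold raw counts per gene, without normalization, for 6 libraries. The 5 summary lines, which name no gene, were left out and held 25.9% to 64.9% of the lines' total. The RNA was not fragmented for the libraries, so CPM per kilobase is only a common scale for genes of unlike length.

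The members and gene lists were chosen with earlier results of these data known. Genes with at least 1.0 CPM in 3 or more libraries entered edgeR 4.0.16 (R 4.3.3, TMM, quasi-likelihood, condition as the only factor, Benjamini-Hochberg, threshold 0.05). Each SE was obtained from the fold change and its F statistic, and the procedure was first checked on simulated data. Exact permutation and sign-flip tests and 95% Wilson intervals used scipy 1.17.1. Replicates of a condition differed by more than sampling noise. BLAST+ 2.17.0 compared the members with GENCODE transcripts. The text names the members, the genes beside them, the 5 closest profiles and genes of fixed lists. The alternatives included DESeq2 1.42.0, the exact test of edgeR, other filters, scalings and denominators, a replicate block and each library left out. The labels do not say that replicates came from separate cultures (the study calls them biological), so p-values measure the spread between these libraries.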

Additional observations from a re-analysis of the deposited data

How the results depend on the processing

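The number of genes called by edgeR's quasi-likelihood test, 1 with all 6 libraries, was 0 with DESeq2 (95 genes at an unadjusted p under 0.05), 0 with at least 10 counts in every library (3 of 134), 2 with no filter (199) and 0 with the replicate block (20), and 0 to 47 with 1 library left out. The 47 came without anti-CD24 replicate 1 and the 0 without isotype replicate 1 (56) or anti-CD24 replicate 2 (103). Same-numbered libraries did not deviate together (r of -0.03, -0.02 and -0.11 across 1501 genes), so the number was not taken to pair them in the main fit. These correlations do not measure an effect of the run. With the replicate block, the members' log2 fold changes ran from 0.33 for mt-Tl1 to 2.13 for mt-Tf. Each had an adjusted p of 0.987 in edgeR's quasi-likelihood test. mt-Tf, mt-Tv and mt-Ti kept a positive log2 fold change in every fit that held them, from 0.13 to 3.14. That of mt-Tl1 was negative with DESeq2 (-0.17) and with mitochondrial counts as library size (-0.35), and ran from -0.53 without isotype replicate 3 to 1.36 with 1 library left out. That of mt-Tm was -0.28 with at least 10 counts in every library, a fit that left out mt-Tf, mt-Tl1 and mt-Ti. The log2 ratio of the mean share of the 5 genes, anti-CD24 over isotype, was 0.24, and -0.05 to 0.78 with other denominators. It was 0.87 without mt-Tm, a setting chosen after seeing the data, and -0.40 to 0.65 with 1 library left out, negative without isotype replicate 3 or anti-CD24 replicate 2. The count of member pairs in one order stayed at 7 to 9. The causes were not tested. Counts of 2 to 18 limit mt-Tf, mt-Tl1 and mt-Ti in several libraries.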
